A study of Mus musculus with 12 samples.

Results

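Hspb1 encodes a small heat shock protein, and its level in peritoneal macrophage RNA was compared here across age and treatment with PF-044, a compound that blocks EP2, one of the receptors for prostaglandin E2. It is 1 of 1448 genes in the deposited table and 1 of 1190 with a value above the floor of the table in at least 1 mouse. The 12 samples are 12 mice in 4 groups of 3. Mice were either aged, at 20 to 22 months, or young, at 3 to 4 months. At each age 1 group was gavaged with PF-044 over 6 weeks (2.5 mg/kg daily) and the other had no agent. The sources used here do not give strain, genotype or whether the untreated mice received a vehicle. Total RNA from peritoneal macrophages was counted on the NanoString nCounter, a method that reads colour-coded probes bound to RNA molecules with no amplification step, and no sorting step is named in those sources. Hspb1 was selected on its normalized values over these 4 groups, set against the floor, so these values are a description and carry no test. Tests are given only for other genes, from a fit over all 1190.

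Small heat shock proteins are chaperones that need no ATP: they bind unfolding proteins, keep them soluble and pass them to the Hsp70 system for refolding. Hspb1 is known to form large oligomers that break into smaller ones when the protein is phosphorylated by MK2, the kinase downstream of p38 MAPK, and it is also known for binding actin and for limiting apoptosis and oxidative damage. Its gene is a classical target of the heat shock factor Hsf1, which binds inverted repeats of the letters GAA upstream of heat shock genes. EP2, encoded by Ptger2, is a receptor of prostaglandin E2 that raises cyclic AMP in macrophages.

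The sequence upstream of Hspb1 is shown because it holds the classical element of heat shock genes. The gene lies on the plus strand of mouse chromosome 5. The stretch printed here is the 250 bases before the annotated start of the gene in RefSeq GRCm38.p6 (chr5:135887669-135887918), with the heat shock element pairs GAANNTTC and a cyclic AMP response half-site in capitals.
Hspb1: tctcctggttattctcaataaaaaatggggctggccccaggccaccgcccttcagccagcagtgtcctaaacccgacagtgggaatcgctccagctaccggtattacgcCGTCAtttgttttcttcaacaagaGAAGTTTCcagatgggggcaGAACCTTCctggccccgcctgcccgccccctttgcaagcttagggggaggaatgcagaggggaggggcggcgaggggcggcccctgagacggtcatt
Both strands were searched. The heat shock element pair, written GAANNTTC or TTCNNGAA, occurred at 2 places, from 117 to 110 and from 97 to 90 bases before the start, and in 12.84% of the 32851 mouse promoters of the same length. The cyclic AMP half-site TGACG occurred once, read as CGTCA from 141 to 137 bases before the start, and in 17.77% of promoters, while the full site TGACGTCA was not among these letters. The GC box GGGCGG, the motif of Sp1-type factors, occurred at 4 places and in 32.74% of promoters. No motif overlapped another of a different kind. These matches describe letters, and binding was not measured in these samples.

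Hspb1 stood highest in aged untreated mice, lower in young untreated mice, and close to the floor in both groups given PF-044. The floor is the lowest value in the table, 20 on the linear scale and 4.32 on the log2 scale, and Hspb1 was above it in 12 of 12 mice. In aged untreated mice its normalized log2 values were 7.42, 7.36 and 7.47. In young untreated mice they were 6.48, 6.23 and 6.27, and in young PF-044 mice 4.74, 4.89 and 5.19. In aged PF-044 mice they were 4.93, 4.76 and 4.59. The groups therefore lay apart from each other everywhere except for the PF-044 groups, whose ranges overlapped.

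**Figure D1:**
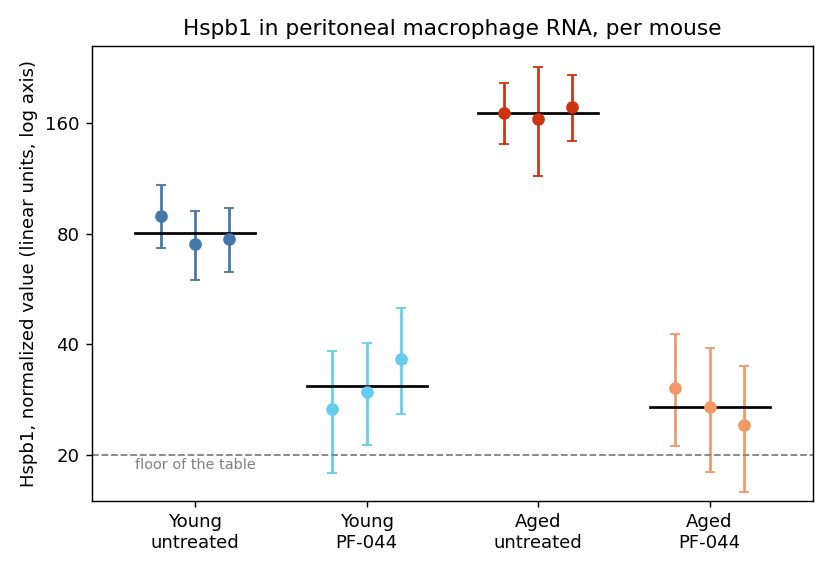
Hspb1 in each mouse, as normalized linear values on a log axis, with 1 point per mouse, the group mean as a black bar and vertical 95% intervals of counting error from the inferred counts. The aged untreated mice sit between 165 and 177, the young untreated mice between 74.9 and 89.5, and the 6 PF-044 mice between 24.0 and 36.6, just above the dashed floor.

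As means, the groups stood at 7.42 ± 0.05, 6.33 ± 0.14, 4.94 ± 0.23 and 4.76 ± 0.17 log2 units (SD, n = 3), in the order aged untreated, young untreated, young PF-044 and aged PF-044. On the linear scale the mean was 8.55 times the floor in aged untreated mice and 4.03 times in young untreated mice. With PF-044 it was 1.55 times the floor in young and 1.36 times in aged mice. Aged untreated mice exceeded young untreated mice by 1.09 log2 units (2.13-fold), and the nearest mice of these groups were 0.88 apart. PF-044 mice were lower than untreated mice by 2.66 log2 units in aged animals (6.32-fold) and by 1.39 in young animals (2.62-fold), with gaps of 2.43 and 1.03 between the nearest mice. The PF-044 difference was larger in aged than in young mice by 1.27 log2 units, a value made of the 1.09 between the untreated groups and the 0.18 between the treated groups. The 95% intervals of counting error of 3 of the 6 PF-044 mice reach under the floor (to 17.9, 18.0 and 15.8 on the linear scale), so the floor limits these folds and the difference between them. Young and aged PF-044 mice differed by 0.18 log2 units, about as much as the mice within each group, and their ranges overlapped. Within groups Hspb1 varied like a typical gene of the table: its pooled SD was 0.16 log2 units and the median over all tested genes was also 0.16, with 586 of the 1190 genes above it. Since these are bulk samples, fewer cells that express Hspb1 and less Hspb1 RNA per cell cannot be told apart.

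Because the treated values lie just above the floor, the counts behind them matter. Linear values above the floor are, with few exceptions, a whole number times a step, which is the form that scaled counts take. There are 3 sets of genes, each with its own step in every sample, 3 genes belong to none of them, and Hspb1 shares its step with 163 other genes. In that set 1601 of 1604 values (99.8%) lay on a multiple within 0.008 linear units, as did 12 of 12 values of Hspb1. Dividing by the step gave inferred count equivalents for each mouse, with exact 95% Poisson intervals that cover counting error only.

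In young mice the counts of Hspb1 themselves were lower with PF-044. Young untreated mice had 105 count equivalents (95% interval 85.9 to 127), 88 (70.6 to 108) and 99 (80.5 to 121). Young PF-044 mice had 29 (19.4 to 41.6), 40 (28.6 to 54.5) and 38 (26.9 to 52.2). The intervals of the treated and untreated young mice lay apart, and the steps of these mice were alike, from 0.742 to 0.963.

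Aged untreated mice had higher Hspb1 counts than aged PF-044 mice, except that the interval of 1 of them overlapped theirs, but not higher counts than young untreated mice as a group. These mice had 110 (90.4 to 133), 36 (25.2 to 49.8) and 97 (78.7 to 118) count equivalents, and aged PF-044 mice had 34 (23.5 to 47.5), 28 (18.6 to 40.5) and 27 (17.8 to 39.3). The aged untreated steps were larger, at 1.56, 4.57 and 1.83, against 0.890 to 0.966 in aged PF-044 mice. The whole set was counted less in them: its total was 81415, 25930 and 63166 count equivalents in aged untreated mice and 123938 to 160070 in the other 9 mice. Per 1000000 counts of its set, Hspb1 was at 1351, 1388 and 1536 in aged untreated mice, and at 748, 628 and 667 in young untreated mice. The same quantity was 216, 250 and 302 in young PF-044 mice and 264, 225 and 218 in aged PF-044 mice. On this scale, computed from the inferred counts alone, the order of the groups was the one given by the normalized values, and aged untreated mice were 2.10-fold above young untreated mice. On count equivalents with no scaling, aged untreated mice were below young untreated mice by 0.42 log2 units (-0.42). That sign comes from replicate 2, the lowest of them at 36. The other aged untreated mice, at 110 and 97, were close to the young untreated mice, at 105, 88 and 99. The age difference of Hspb1 thus rests on the scaling to a smaller total.

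**Figure D2:**
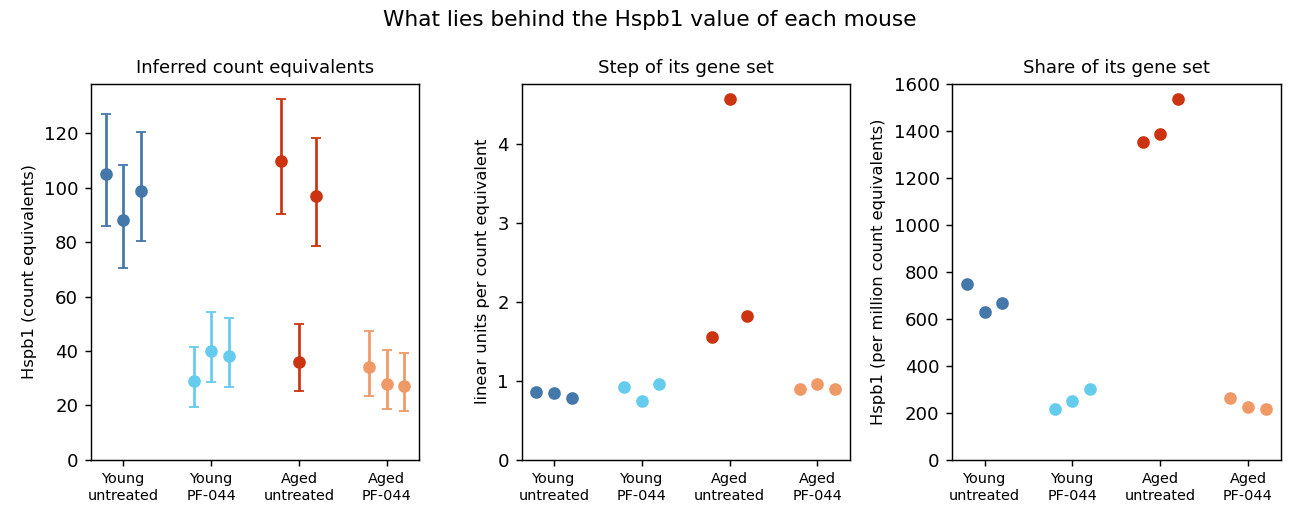
What lies behind each Hspb1 value, with 1 point per mouse. The panels give the inferred count equivalents with 95% Poisson intervals, the step of the gene set, and Hspb1 per 1000000 counts of that set. Aged untreated mice have counts of 36 to 110 and steps of 1.56 to 4.57. As a group they stand highest only after scaling.

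The depth of the table differed mainly in 1 mouse. The inferred counts over all 3 sets summed to 172223 in aged untreated replicate 2, and to between 525832 and 905754 in the other 11 mice. That mouse had 741 genes at the floor, the other aged untreated mice 333 and 527, and the 9 mice of the other groups 404 to 467. With it left out, the Hspb1 difference with age was 1.12 log2 units and that with PF-044 in aged mice was -2.69.

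The genes of the step set of Hspb1 moved little as a whole. Their median change was 0.17 log2 units with age, -0.14 with PF-044 in aged mice and 0 with PF-044 in young mice. Relative to the median of its set, the difference of Hspb1 was 0.92 with age, and -2.52 and -1.39 with PF-044 in aged and young mice.

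Against the other genes, Hspb1 ranked high for the response to PF-044 and lower for age. Among 1190 genes it had the largest absolute change with PF-044 in young mice and the 2nd largest in aged mice. With age it was 226th by absolute change and 63rd among the rises. Around it in aged mice were Ccl22 (-2.72), a chemokine gene of alternatively activated macrophages, before it, and Serinc5 (-2.34), Ifi27l2a (-2.19), the anti-inflammatory cytokine gene Il10 (-2.18) and the interferon-induced gene Ifit1 (-2.09) after it. In young mice the next lower group differences after Hspb1 (-1.39) belonged to Cfb (-1.19), Cxcr4 (-1.16) and Ccr7 (-1.02). The PF-044 comparisons in aged and young mice share no samples, but Hspb1 was selected on the values of both. Of the 1190 genes, 30 were lower by more than 1 log2 unit in aged mice and 4 in young mice. Hspb1 and Cfb were the 2 genes on both lists, which is 6.67% of the first and 50% of the second. These shares count the selected gene itself, so they are a description only. Cfb, complement factor B of the alternative pathway, was singled out after its values were seen, and it shares the step set of Hspb1. Its log2 values were 9.93, 10.09 and 9.91 in aged untreated, 8.89, 8.98 and 8.75 in aged PF-044, 8.15, 8.20 and 8.25 in young untreated and 7.11, 6.85 and 7.06 in young PF-044 mice. Unlike Hspb1, Cfb kept an age difference under PF-044, and no mouse was near the floor.

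**Figure D3:**
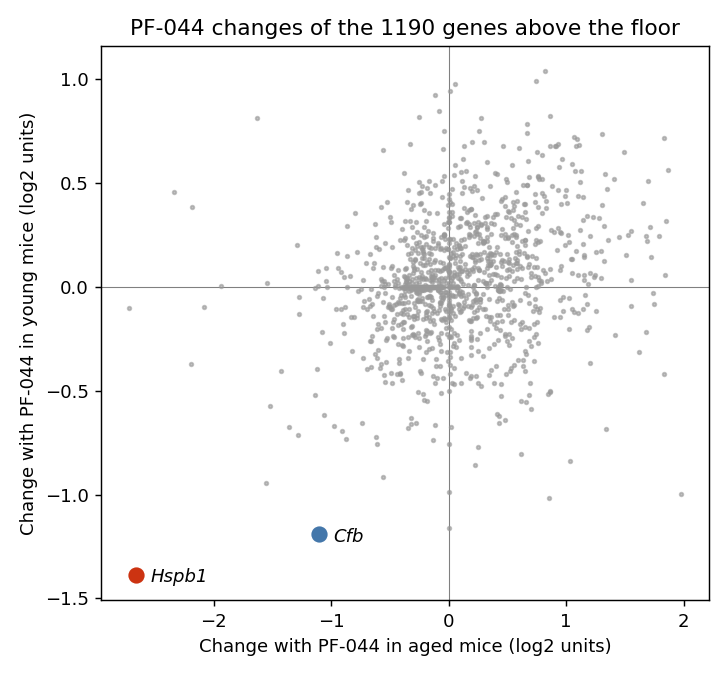
Change with PF-044 in aged mice (x axis) and in young mice (y axis), both in log2 units, for each of the 1190 genes above the floor. Hspb1 (-2.66 and -1.39) lies at the lower left corner of the cloud, with Cfb (-1.11 and -1.19) as the only other gene lower by more than 1 log2 unit in both.

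On the deposited scaling, none of the other measured heat shock and chaperone genes passed as lower with PF-044 at both ages, while Hspe1 did with median or reference-gene centring. Of 47 genes listed, 8 were measured, and the 7 besides Hspb1 were Hspb2, Hspa2, Hspa4, Hspe1, Dnajb6, Hsf1 and Hsf2. With age, 1 of the 7 rose and 3 fell (limma, Benjamini-Hochberg adjusted p under 0.05), where 54% of all genes passed (21.2% higher and 32.9% lower). Their median change was -0.25 log2 units and that of all genes was -0.07. With PF-044 in aged mice 3 rose and 1 fell, where 40.9% of all genes passed (25.7% higher and 15.2% lower), with a median of 0.04 beside 0.02. With PF-044 in young mice 0 of the 7 passed in limma (2 at an unadjusted p under 0.05), where 14.1% of all genes did (8.4% higher and 5.71% lower). The difference between the PF-044 effects passed for 1 of 7, where 25.7% of all genes did. On 7 genes these shares show nothing particular to the list. With samples centred on the 4 reference genes measured, 3 of the 7 rose and 2 fell with age. With PF-044 in aged mice 1 rose and 2 fell. The 3 that rose with age include Hspb2 (0.85, limma adjusted p = 0.017). Among untreated mice Hspb2 was above the floor only in young replicate 1 and aged replicate 1. Its rise therefore includes floor values shifted by this centring, which moved the median gene by 0.41 with age. Over all 1190 genes 552 rose and 222 fell with age at that scaling, and 158 rose and 295 fell with PF-044 in aged mice.

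Hspa4, which encodes an Hsp110-type nucleotide exchange factor of Hsp70, moved opposite to Hspb1. Its log2 values were 8.09, 8.12 and 8.21 in young untreated mice, 6.64, 6.45 and 6.46 in aged untreated mice and 7.23, 7.45 and 7.20 in aged PF-044 mice. It fell with age by 1.62 log2 units (SE 0.10, limma adjusted p = 7.3e-08) and rose with PF-044 in aged mice by 0.78 (SE 0.10, limma adjusted p = 7.9e-05). In young PF-044 mice it stood at 8.08, 8.06 and 7.97, overlapping no aged mouse and close to the young untreated mice (change -0.10, limma adjusted p = 0.63). The PF-044 effects at the 2 ages differed by 0.88 (SE 0.14, limma adjusted p = 0.00084).

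Hsf1, the heat shock factor whose element stands upstream of Hspb1, was lower where Hspb1 was highest. Its log2 values were 8.13, 7.92 and 7.96 in young untreated, 7.11, 7.17 and 6.81 in aged untreated, 7.49, 7.56 and 7.84 in aged PF-044 and 8.27, 8.20 and 8.42 in young PF-044 mice. It fell with age by 0.97 (SE 0.13, limma adjusted p = 4.0e-05) and rose with PF-044 in aged mice by 0.60 (SE 0.13, limma adjusted p = 0.0024). That rise was 0.37 with reference-gene centring and did not pass (limma adjusted p = 0.055). In young mice the change was 0.30 (limma adjusted p = 0.16). The activity of Hsf1, which is set by its trimerization and phosphorylation, is not measured by its RNA.

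The remaining members were less clear. Hspa2, an Hsp70 family gene, fell by 0.78 with age and rose by 0.73 with PF-044 in aged mice (limma adjusted p = 0.012 and 0.024). Aged untreated replicate 2 had it at the floor. With that mouse left out these changes were smaller, at -0.49 and 0.44, and still passed (limma adjusted p = 0.013 and 0.030). With reference-gene centring neither passed (limma adjusted p = 0.21 and 0.12), and the PF-044 call was also lost without aged PF-044 replicate 1 or 3 (limma adjusted p = 0.072 and 0.063). Dnajb6, a J-domain co-chaperone, rose with age by 0.33 and fell with PF-044 in aged mice by 0.36 (limma adjusted p = 0.035 and 0.032), the same signs as Hspb1. Other scalings gave larger changes, up to 0.74 with age and -0.59 with PF-044 in aged mice under reference-gene centring (limma adjusted p = 0.00042 and 0.0041). The age call was lost without aged untreated replicate 1 (0.18, limma adjusted p = 0.13) and in 6 other leave-outs (limma adjusted p from 0.05004 to 0.12), of aged untreated replicate 3, aged PF-044 replicate 1, young untreated replicates 1 and 2 and young PF-044 replicates 1 and 3. The PF-044 call was lost without aged untreated replicate 1 (-0.21, limma adjusted p = 0.11) and without aged PF-044 replicate 1 or 3 (limma adjusted p = 0.098 and 0.11). Hspe1, the mitochondrial co-chaperonin, changed by -0.41 in young PF-044 mice (limma adjusted p = 0.07), and by -0.51 with a limma adjusted p of 0.023 when samples were centred on the median gene. With that centring its change in aged PF-044 mice was -0.35 (limma adjusted p = 0.048), against -0.23 as deposited (limma adjusted p = 0.21). Hspb2, the small heat shock gene closest in name, was at the floor in 9 of 12 mice. Hsf2 passed in none of the 4 comparisons.

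**Figure D4:**
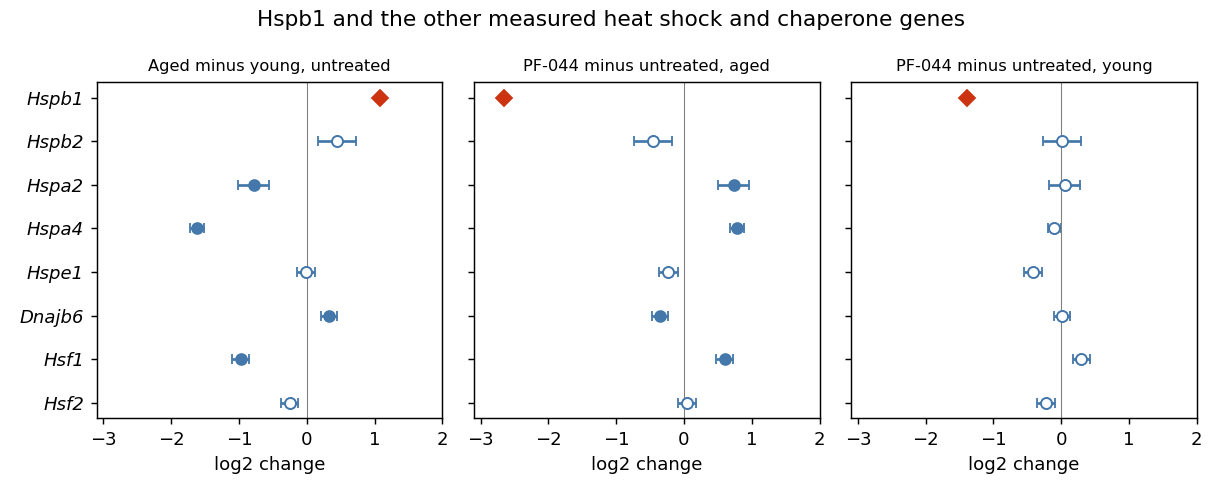
Changes in log2 units for Hspb1 (red diamond, group difference only) and the 7 other measured heat shock and chaperone genes (blue points with the SE of the limma fit, filled where the adjusted p was under 0.05) with age, with PF-044 in aged mice and with PF-044 in young mice. Hspb1 lies far to the left of the others in both PF-044 panels, at -2.66 and -1.39, while Hspa4 and Hsf1 lie to the left with age and to the right with PF-044 in aged mice.

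Genes of the p38 MAPK and MK2 pathway, whose kinase MK2 phosphorylates Hspb1 protein, were listed next. Of 35 genes 21 were measured and 19 tested, the other 2 being at the floor. With age 7 rose and 4 fell, with PF-044 in aged mice 3 rose and 5 fell, and with PF-044 in young mice 0 rose and 2 fell. These totals of 11, 8 and 2 of 19 stand beside 54%, 40.9% and 14.1% of all genes, near the background. The medians of the list were 0.22, 0.06 and 0.02 log2 units, and those of all genes -0.07, 0.02 and 0.02. With reference-gene centring the counts were 11 higher and 2 lower with age and 0 higher and 9 lower with PF-044 in aged mice. The 11 include Mapk12, which was at the floor in every untreated mouse. That scaling moved the whole table: of 1190 genes 552 were higher and 222 lower with age. With PF-044 in aged mice 158 were higher and 295 lower. Mapkapk2, which encodes MK2 itself, changed in the same direction as Hspb1 in aged mice, on a smaller scale. Its log2 values were 9.67, 9.60 and 9.65 in aged untreated and 9.20, 9.26 and 9.24 in aged PF-044 mice, and these groups did not overlap. In young mice they were 9.36, 9.41 and 9.33 untreated and 9.41, 9.24 and 9.32 with PF-044, which overlapped. It rose with age by 0.27 (SE 0.05, limma adjusted p = 0.00064), fell with PF-044 in aged mice by 0.41 (SE 0.05, limma adjusted p = 7.1e-05) and changed by -0.04 in young mice (limma adjusted p = 0.74). Mapk14, which encodes p38 alpha, fell with age by 0.80 (limma adjusted p = 1.2e-05), and its change with PF-044 in aged mice was 0.22 (limma adjusted p = 0.075).

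Ddit3, which encodes the stress transcription factor CHOP, had the directions of Hspb1 in each of the age and PF-044 comparisons. Its log2 values were 8.02, 8.28 and 8.16 in aged untreated, 7.34, 7.30 and 7.22 in aged PF-044, 6.99, 7.39 and 7.29 in young untreated and 6.45, 6.55 and 6.47 in young PF-044 mice. It rose with age by 0.93 (SE 0.12, limma adjusted p = 4.3e-05) and fell with PF-044 by 0.87 in aged mice (limma adjusted p = 0.00015) and by 0.73 in young mice (limma adjusted p = 0.0024). The PF-044 effects at both ages differed by -0.14 (limma adjusted p = 0.61). Mknk1, a kinase gene of the same list, rose with age by 0.95 and fell with PF-044 in aged mice by 0.62 (limma adjusted p = 7.1e-06 and 0.00044), but changed by 0.24 in young mice (limma adjusted p = 0.15). Dusp1, a phosphatase gene that ends p38 signalling, fell with age by 1.43 (limma adjusted p = 1.2e-08). With PF-044 it rose by 0.36 in aged mice and fell by 0.40 in young mice (limma adjusted p = 0.0016 and 0.0031). That rise was 0.13 with reference-gene centring (limma adjusted p = 0.27). Creb1, from the p38 and MK2 list, changed by -0.92 with age and by 0.945 with PF-044 in aged mice. These directions are opposite to those of Hspb1 (limma adjusted p = 0.027 and 0.031). In young mice it changed by -0.14 (limma adjusted p = 0.90). Both calls were lost with reference-gene centring (limma adjusted p = 0.18 and 0.088). The age call was also lost without young untreated replicate 2 or 3. The PF-044 call was also lost without aged PF-044 replicate 1, 2 or 3. Ddit3, Mapkapk2, Mapk14, Mknk1 and Creb1 are in the step set of Hspb1 and Dusp1 is not.

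The endoplasmic reticulum stress list, to which Ddit3 also belongs, did not move one way. Of 19 genes 4 were measured, and with age Ddit3 and Atf4 (0.31, limma adjusted p = 0.00014), the factor that drives CHOP, rose. Calr, a lectin chaperone, fell by 0.90 and Ern1, the stress sensor IRE1, fell by 1.34 (limma adjusted p = 3.9e-07 and 1.8e-06). With PF-044 in aged mice Ddit3 and Atf4 (-0.24, limma adjusted p = 0.0018) fell and Ern1 rose by 0.94 (limma adjusted p = 7.2e-05). In young mice Ddit3 and Calr (-0.51, limma adjusted p = 0.00084) fell and Atf4 rose by 0.25 (limma adjusted p = 0.0047), or 0.16 with median centring, where it did not pass (limma adjusted p = 0.057). Lists for the other roles of small heat shock proteins were also mixed. Of 15 tested oxidative stress genes, 4 rose and 6 fell with age, 3 rose and 3 fell with PF-044 in aged mice and 2 rose and 2 fell in young mice. Of 7 actin genes, 3 rose and 2 fell, 1 rose and 3 fell, and 0 rose and 1 fell in the same order. Of 5 apoptosis genes, the counts were 1 and 3, 1 and 0, and 2 and 0. Over all genes 54%, 40.9% and 14.1% passed in these comparisons, and with 5 to 15 genes a list nothing particular is read from the counts. Ptger2, the gene of the receptor that PF-044 blocks, stood at 5.59 ± 0.16, 5.40 ± 0.27, 6.19 ± 0.23 and 5.87 ± 0.08 (SD, n = 3) in young untreated, young PF-044, aged untreated and aged PF-044 mice. It rose with age by 0.60 (SE 0.19, limma adjusted p = 0.017) and changed with PF-044 by -0.32 in aged and -0.19 in young mice (limma adjusted p = 0.21 and 0.62).

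The genes whose profile came nearest to Hspb1 were found by the root mean square difference of log2 values over the 12 mice, after each gene's own mean was subtracted, among 1077 genes above the floor in at least 3 mice. They were Irf7 (0.57 log2 units), a regulator of interferon genes, Crip1 (0.62), Ifit3 (0.63), Ifit1 (0.64), Ccl22 (0.67) and Ifi27l2a (0.68). Ifit1, Ifit3 and Ifi27l2a are interferon-induced genes. All 6 were highest in aged untreated mice, and they parted from Hspb1 in young untreated mice. Hspb1 was there 1.39 log2 units above its young PF-044 level, whereas Ifit3 stood at 6.35 and 6.36, Ccl22 at 4.85 and 4.75 and Ifit1 at 4.45 and 4.35 in young untreated and young PF-044 mice. Irf7, at 7.13 and 6.55, and Crip1, at 13.62 and 12.91, came closer to it. All but Crip1, 5 of the 6, share the step set of Hspb1, which holds 13.5% of the 1077 genes. By Pearson correlation over the 12 mice, which share scaling within a step set, the 6 leading genes were others, from H2-D1 (0.95) to Hras (0.89), and 0 of them were in that set.

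**Figure D5:**
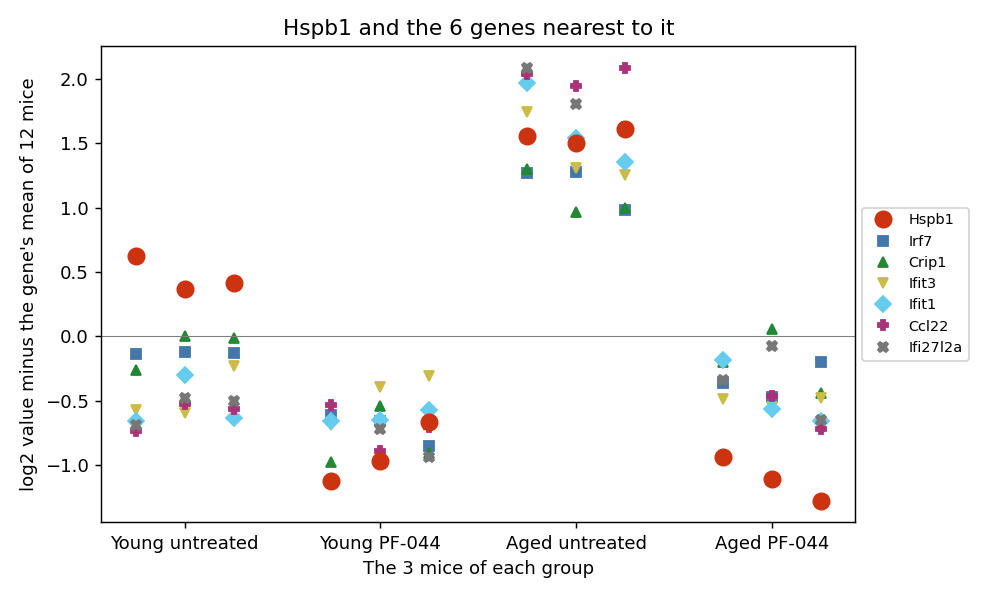
Log2 value minus the gene's own mean over the 12 mice, for Hspb1 (red circles) and the 6 genes nearest to it, with 1 symbol per mouse in each group. All 7 are highest in aged untreated mice, and Hspb1 stands above the other 6 in young untreated mice and below them in aged PF-044 mice.

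Markers of cell types moved with the groups too. Of 11 measured macrophage markers none was at the floor throughout, which was also true of the measured B cell, T cell and mast cell markers, so this does not single out macrophages. The macrophage markers had a summed linear level of 5430 to 6166 in aged untreated mice, 7966 to 8860 in aged PF-044, 12027 to 12834 in young untreated and 9604 to 10544 in young PF-044 mice. Markers of resident large peritoneal macrophages (8 measured) summed to 7151 to 7705, 12034 to 14286, 16059 to 16549 and 16958 to 17857 in the same order. Hspb1 was thus highest in the mice where both of these sums were lowest. In limma 0 of the 11 macrophage markers rose and 10 fell with age, and 9 rose and 0 fell with PF-044 in aged mice. Of the 8 resident markers 2 rose and 5 fell with age, and 6 rose and 1 fell with PF-044 in aged mice. Over all genes 21.2% rose and 32.9% fell with age, and 25.7% rose and 15.2% fell with PF-044 in aged mice. Linear sums weigh abundant genes most and need not follow the single members. With PF-044 in young mice 0 of the 8 resident markers rose and 4 fell in limma, although their sum was higher. Of the 11 macrophage markers 2 rose and 2 fell there, although their sum was lower. Over all genes 8.4% rose and 5.71% fell in that comparison. The 4 B cell markers summed to 43729 to 49225 in aged untreated mice, 24108 to 27469 in aged PF-044, 9730 to 10782 in young untreated and 10445 to 13265 in young PF-044 mice. The 11 T cell markers summed to 1062 to 1244, 2058 to 2180, 2309 to 2594 and 2162 to 2338. Mast cell markers (9 measured) ran from 5634 to 6295, from 6345 to 9134, from 10510 to 11919 and from 11696 to 14659. With age 4 B cell markers rose and 0 fell in limma, 0 T cell markers rose and 11 fell, and 0 mast cell markers rose and 7 fell. With PF-044 in aged mice the counts were 0 and 2, 11 and 0, and 4 and 0 in the same order. The part of these cell types in the Hspb1 levels was not tested.

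Non-immune cells of the abdominal cavity are another known source of small heat shock proteins. All 4 measured endothelial markers, Cdh5, Tek, Flt1 and Sele, were at the floor in all 12 mice. Of 4 fibroblast markers, Col1a2, Pdgfra and Pdgfrb were at the floor in all 12, and Col3a1 was above it in 1 young untreated mouse. The 3 mesothelial genes measured, Cav1, Cdh1 and C3, are also expressed by other cells. They summed to 361 to 415 in aged untreated, 313 to 394 in aged PF-044, 316 to 369 in young untreated and 224 to 253 in young PF-044 mice. These sums overlapped between the aged groups and did not overlap between the young groups, where they were lower with PF-044. Single members did not move one way. In limma 1 of the 3 rose and 1 fell with age, and again with PF-044 in aged mice. With PF-044 in young mice 0 rose and 1 fell. Over all genes 54%, 40.9% and 14.1% passed in these comparisons. Their part in the Hspb1 levels was not tested.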

How the data were processed

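Peritoneal macrophage RNA of 12 mice was measured on the NanoString nCounter. The deposited values are normalized expression on the log2 scale and were not transformed further. Per the submitters' processing notes limma was used, without a stated version or purpose. The sources used here do not state how the authors subtracted background, scaled samples, set the floor and joined probe sets. Of 1448 genes, 258 were at the floor (20, or 4.32 in log2) in all samples and were left out. For each of the other 1190, a linear model with 1 coefficient per group was fitted in limma (version 3.58.1, R 4.3.3), with variances moderated by eBayes along the mean level. Two-sided p-values were adjusted by the Benjamini-Hochberg method across these genes, with a threshold of 0.05, 8 residual and 3.27 prior degrees of freedom, and the method was tested on simulated data. Spread is assumed equal in all groups, which fails for genes at the floor in 1 mouse of a group. Steps were searched in the linear values of each sample with Python 3.11.15, and 20 of 20 simulated steps were recovered. Count equivalents are inferred, since raw counts were not analysed here. The age and PF-044 comparisons in aged mice share the aged untreated mice. Of 1448 symbols, 1431 matched current RefSeq symbols (GRCm38.p6) and 14 a synonym.

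Hspb1 and all gene lists were chosen with earlier results of these data known. Named genes are Hspb1, every measured heat shock and endoplasmic reticulum stress gene, and Mapk14, Mapkapk2 and Ptger2. The p38 and MK2 list adds the 4 genes with the largest change among those passing with age or with PF-044 in aged mice. The 6 nearest genes and the neighbours of Hspb1 in the order of PF-044 changes are named too. Genes of the oxidative stress, actin and apoptosis lists are counted but not named. Alternatives were other scalings, a common floor of 100, other filters, a fit without trend, another likeness measure, leaving out each mouse, and replicate number as a block. Among 18 pairs of samples with the same replicate number, deviations correlated from -0.15 to 0.33 with 5 above 0.1. Pairs with different numbers were not correlated, so these values cannot decide whether the numbers pair the mice. The main fit took the mice as unpaired.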

Additional observations from a re-analysis of the deposited data

Results flagged for a closer look

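The PF-044 effect differed between aged and young mice in 7 of the genes named from the heat shock, p38 and MK2, and endoplasmic reticulum stress lists, by limma's test of the difference itself (aged minus young, log2 units). Over all 1190 genes 25.7% passed that test. In the heat shock list the gene was Hspa4 (0.88, limma adjusted p = 0.00084). In the p38 and MK2 list the differences were -0.365 for Mapkapk2 (limma adjusted p = 0.0032), 0.762 for Dusp1 (limma adjusted p = 0.00022) and -0.86 for Mknk1 (limma adjusted p = 0.00098). Among endoplasmic reticulum stress genes they were 0.447 for Calr, -0.491 for Atf4 and 0.681 for Ern1 (limma adjusted p = 0.0047, 0.0003 and 0.011). Each contrast includes the aged untreated mice, whose inferred counts are the lowest. Dusp1 and Mknk1 were named because they passed with age or with PF-044 in aged mice. Those comparisons share the aged untreated mice with this test, so nothing particular to the lists is read from the count. The difference of Hspb1 was -1.27 and carries no test, and none is given for the nearest genes and the neighbours, which were picked by these same values.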

How the results depend on the processing

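Hspb1 kept the direction of each difference under the scalings, floors and leave-outs that gave a value. On the inferred counts with no scaling the age difference was -0.42, a sign that comes from the low counts of aged untreated replicate 2. Its age difference (1.09) was 1.30 with median centring, 1.49 with reference-gene centring, 1.47 with quantile normalization and 0.77 with a common floor of 100. Its PF-044 difference in aged mice (-2.66) was -2.89 with reference-gene centring and -0.77 with the common floor, which lies above Hspb1 in the 9 mice outside the aged untreated group, so that no young value exists there. The difference of the PF-044 effects (-1.27) was -1.51 with reference-gene centring and -1.49 with quantile normalization. Leaving out each mouse gave 1.04 to 1.17 for age, -2.74 to -2.57 and -1.51 to -1.29 for PF-044 in aged and young mice, and -1.37 to -1.15 for their difference. Scaling to the total of the step set or centring on its median, both chosen after seeing the data, gave no further change above the spread between mice. Genes changed with PF-044 in young mice numbered 168, and 107 with reference-gene centring, and 100 to 237 with single mice left out (100 without young PF-044 replicate 1, 111 without young untreated replicate 3). Directions followed the scaling. Median centring shifted the median gene by 0.21 with age and by -0.12 with PF-044 in aged mice, reference-gene centring by 0.41 and -0.23, and quantile normalization shifted it by 0.14 with age. With age 252 rose and 391 fell as deposited, 439 and 315 with median and 552 and 222 with reference-gene centring. With PF-044 in aged mice the split was 306 and 181, against 244 and 253, and 158 and 295. In young mice it was 100 and 68, against 44 and 105 with median centring, and for the difference 178 and 128, against 82 and 224 with reference-gene centring. In the heat shock list, PF-044 in young mice gave 1 call in place of 0 (Hspe1) with median centring, reference-gene centring, quantile normalization, the common floor, the restriction to genes above the floor throughout and the replicate block, and 0 to 1 with single mice left out. The difference of effects gave 2 calls in place of 1 with reference-gene centring and quantile normalization and 1 to 2 with single mice left out (2 without aged untreated replicate 2). PF-044 in aged mice gave 2 to 4, with 2 without aged PF-044 replicate 1 or 3. The block changed no other Hspb1 or list result beyond these limits and gave 651, 502, 166 and 319 changed genes for age, PF-044 in aged and young mice and their difference. Of the 6 genes nearest to Hspb1, 1 remained with the common floor, 0 by Pearson correlation (H2-D1 and S100a11 then led, at 0.95 and 0.94 over 12 mice), and 3 to 6 with single mice left out (3 without aged untreated replicate 2). Hspe1 changed with age by -0.01 as deposited (limma adjusted p = 0.95) and by 0.39 under reference-gene centring (limma adjusted p = 0.0098). Mapk12 was at the floor in all untreated mice. Its 0.41 with age under that centring (limma adjusted p = 0.046) is the shift of its floor values and no reversal. Gadd45b with PF-044 in aged mice ran from -0.62 without aged untreated replicate 2 (limma adjusted p = 0.011) to 0.57 without aged untreated replicate 1. Apart from the Mapk12 shift, the causes were not tested. Inferred counts near 30 in the PF-044 mice limit the precision of Hspb1 there.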
